A study of Mus musculus with 8 samples.

Results

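Toll-like receptors and their shared adaptor were followed in stroke infarcts of aged mice with and without cyclodextrin treatment. The 10 genes are the receptors *Tlr1*, *Tlr2*, *Tlr3*, *Tlr4*, *Tlr6*, *Tlr7*, *Tlr8*, *Tlr9* and *Tlr13* and the adaptor *Myd88*. They were chosen by name as a gene family and found by Ensembl identifier among 46078 genes. All 10 passed the filter on low counts that left 14736 genes for testing. Each infarct came from a wild type C57BL/6J male of 18 months, killed 7 weeks after DH stroke, a model that joins occlusion of the distal middle cerebral artery with systemic hypoxia. Subcutaneous injections began 1 week after stroke and were given 3 times per week for 6 weeks. Vehicle animals (n = 4) received sterile PBS. HPβCD animals (n = 4) received 2-hydroxypropyl-β-cyclodextrin at 4 g/kg, a cyclic oligosaccharide that carries cholesterol in its cavity. All animals of both groups had the stroke, so no uninjured tissue enters the comparison, and the infarcts were dissected by eye, so the amount of adjoining brain was not fixed. Libraries held 16.6 M to 32.9 M gene counts, the deepest being vehicle animal 2. Levels below are CPM, read counts relative to the library total and its TMM scaling factor, and are comparable between animals but not between genes unless divided by the length of the gene's exons.

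Toll-like receptors are membrane proteins with which macrophages, microglia, dendritic cells and B lymphocytes sense microbial products and material released from dying cells. Some work at the cell surface, where they bind lipids and proteins, and others work in endosomes, where they bind nucleic acids taken up by the cell. All of them except *Tlr3* signal through *Myd88*, which leads to NF-κB and interferon regulatory factors. In infarcts, lipid debris from myelin and nucleic acids from dead cells are both at hand, and the receptors sit in membranes whose cholesterol content affects their signaling. The comparison of surface with endosomal members asks whether the transcripts of these classes moved apart under treatment with a compound that carries cholesterol. Cholesterol itself is not part of these data.

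None of the 10 transcripts passed the test of a difference between HPβCD and vehicle infarcts. The largest difference was that of *Tlr8*, an endosomal receptor, whose mean was 1.57-fold higher with HPβCD (95% interval 0.981 to 2.499), and the lowest log2 fold change was that of *Tlr1*, a surface receptor, at -0.30. By edgeR's quasi-likelihood test, 0 of 10 members had an adjusted p under 0.05, where 1.95% of all genes tested did. At an unadjusted p under 0.05 the count was also 0, against 27.8% of all genes. Ranges of the groups overlapped for all 10 members, whereas 16.8% of all genes had groups that did not overlap. DESeq2 called 0 members, where it called 10.9% of 26507 genes, a wider set that includes genes too low for edgeR's filter. The limma-voom fit called 1 member, *Tlr1*, where it called 22.1% of genes. Fits of edgeR with other settings also called 0 members, where they called 2.04% of all genes with RLE scaling, 0.0746% with library totals alone, 1.11% with no filter, 2.33% with a filter of 1 CPM in 4 samples, 0.0611% with the replicate number as a block, 3.60% without vehicle animal 2, 4.22% without vehicle animal 3, 2.35% without HPβCD animal 4 and 1.34% without vehicle animals 1 and 3.

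Vehicle animal 3 had the lowest level among all 8 libraries for 10 of 10 members, and vehicle animal 2 had the highest of its group for 8 of 10. The SD was smaller with HPβCD for 9 of 10 members. Vehicle animals 3 and 1 carried 5393 and 833 CPM of 5 neuron markers summed, which lay between 2.20 and 69.7 in the other 6 libraries. The part of these neuron transcripts in the low receptor levels of vehicle animal 3 was not tested. Each member's log2 fold change without vehicle animals 1 and 3 is given with the member. In tissue libraries of this kind, fewer cells of a type and less RNA per cell cannot be told apart.

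*Tlr1* and *Tlr6* lie side by side on chromosome 5 and resemble each other most closely among the members, which bears on how their reads could be counted. On GRCm38, *Tlr1* spans chr5:64924679-64933563 and *Tlr6* spans chr5:64952031-64960097, both on the minus strand. Their coding sequences were identical at 76.78% of 2347 aligned bases. All other pairs of receptors lay between 57.2% and 63.7%, with *Tlr7* and *Tlr8* at 59.36%. That narrow range does not rank how closely those receptors are related. The longest identical stretch measured 229 bases and lay within a single coding exon of each gene, at chr5:64925537-64925765 in *Tlr1* (coding bases 1468 to 1696 of 2388) and chr5:64953828-64954056 in *Tlr6* (coding bases 1507 to 1735 of 2421). It is shown on the coding strand because a read that falls entirely inside it fits both genes alike:
Tlr1 and Tlr6: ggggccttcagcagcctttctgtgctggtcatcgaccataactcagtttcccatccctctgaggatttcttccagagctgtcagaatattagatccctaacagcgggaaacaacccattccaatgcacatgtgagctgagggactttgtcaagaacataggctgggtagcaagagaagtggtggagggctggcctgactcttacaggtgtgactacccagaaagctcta
Windows of 75 bases, the read length, occurred in another annotated gene at 10.6% of positions in *Tlr1* and 9.25% in *Tlr6*, so reads from both genes may have been left uncounted. The reads were pairs, and a mate outside shared sequence can still place a pair, so these percentages are not shares of reads lost. No window of *Tlr2*, *Tlr4*, *Tlr7*, *Tlr8*, *Tlr9* or *Tlr13* occurred elsewhere. Exons of *Tlr3* overlapped the antisense gene *Gm45542* over 7.32% of their length, and those of *Myd88* overlapped *Acaa1a* over 11.3%. The libraries were stranded but the strand setting of the counting is not given in the sources used here, so in these stretches the partners may share reads.

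Promoters were available for 8 members from RefSeq (GRCm38.p6, 250 bases before to 50 after a start site, 10 windows in all), and *Tlr4* and *Tlr7* had no entry. The letters GAGGAA, the core of the site bound by the myeloid factor PU.1, were searched on both strands. They occurred in 4 of 10 windows, belonging to *Tlr1*, *Tlr8*, *Tlr9* and *Tlr13*, against 28.28% of 32841 promoters of all genes. A further search, also on both strands, found the letters TATAAA in *Myd88*, *Tlr6* and *Tlr8* (13.62% of all promoters) and the AP-1 letters TGANTCA in *Tlr9* (7.81%). Such a match is a run of letters and no evidence of binding. These endosomal members with the PU.1 letters are shown on the strand of the gene, at chrX:167264280-167264579 (minus), chr9:106222348-106222647 (plus) and chrX:106143025-106143324 (plus), with the letters or their reverse complement in capitals, for the endosomal class compared below:
Tlr8: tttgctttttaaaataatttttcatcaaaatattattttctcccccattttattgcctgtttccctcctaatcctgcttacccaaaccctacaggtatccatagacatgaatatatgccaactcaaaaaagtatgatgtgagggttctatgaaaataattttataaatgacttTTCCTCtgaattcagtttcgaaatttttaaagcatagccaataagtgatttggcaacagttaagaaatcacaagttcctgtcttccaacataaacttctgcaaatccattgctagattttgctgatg
Tlr9: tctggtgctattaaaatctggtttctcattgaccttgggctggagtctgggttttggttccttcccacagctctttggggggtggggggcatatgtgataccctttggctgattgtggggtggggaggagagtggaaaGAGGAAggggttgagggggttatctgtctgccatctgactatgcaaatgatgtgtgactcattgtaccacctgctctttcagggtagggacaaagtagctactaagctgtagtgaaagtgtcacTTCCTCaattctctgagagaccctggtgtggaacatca
Tlr13: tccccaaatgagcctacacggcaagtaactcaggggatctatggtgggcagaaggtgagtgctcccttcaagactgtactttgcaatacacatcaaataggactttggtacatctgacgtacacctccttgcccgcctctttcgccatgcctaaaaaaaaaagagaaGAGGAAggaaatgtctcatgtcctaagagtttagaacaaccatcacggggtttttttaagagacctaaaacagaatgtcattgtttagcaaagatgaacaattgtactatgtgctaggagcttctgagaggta
The letters began 77 bases before the start site in *Tlr8* and 83 bases before it in *Tlr13*, while *Tlr9* held them both 112 bases before and 13 bases after it.

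No surface receptor passed the test between groups. *Tlr2* pairs with *Tlr1* or *Tlr6* to recognize bacterial lipoproteins, and it had the highest level per kilobase among the surface members. Vehicle animals 1 to 4 had 142, 162, 65.0 and 166 CPM of *Tlr2*, and HPβCD animals 1 to 4 had 107, 109, 164 and 149 CPM. Vehicle animal 3 was the lowest library, HPβCD animals 1 and 2 lay below the other 3 vehicle animals, and HPβCD animals 3 and 4 lay within 142 to 166 CPM as those did. Means were 134 ± 46.9 CPM (SD, n = 4) with vehicle and 132 ± 28.7 CPM with HPβCD, a log2 fold change of -0.02 (SE 0.29, adjusted p = 0.980, edgeR). It was -0.24 without vehicle animal 3 and -0.29 without vehicle animals 1 and 3.

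*Tlr1* encodes the partner that directs *Tlr2* to triacylated lipoproteins. Its levels were 85.7, 112, 44.9 and 97.4 CPM in vehicle animals and 69.6, 59.4, 81.9 and 66.0 CPM in HPβCD animals. All HPβCD values fell between those of vehicle animals 3 and 1, below the other 3 vehicle animals. The log2 fold change was -0.30 (SE 0.26, 95% interval -0.89 to 0.29, adjusted p = 0.50, edgeR), from 85.1 ± 28.9 to 69.2 ± 9.44 CPM. The size of this value depended on single libraries: it was -0.13 without vehicle animal 2, -0.51 without vehicle animal 3 (adjusted p = 0.0756), and without vehicle animals 1 and 3 together -0.58 (adjusted p = 0.0964). By limma-voom with quality weights, which gives less weight to libraries that stand apart, the log2 fold change was -0.54 with an adjusted p of 0.0338.

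*Tlr6* directs *Tlr2* to diacylated lipoproteins and, with *Tlr4* and *Cd36*, takes part in the response to oxidized low-density lipoprotein. It was the least abundant member, with 16.9, 24.0, 8.15 and 17.8 CPM in vehicle animals and 13.5, 16.4, 17.6 and 19.1 CPM in HPβCD animals. Values of both groups interleaved, and the log2 fold change was -0.01 (SE 0.29, adjusted p = 0.986, edgeR). It ranged from -0.24 without vehicle animal 3 to 0.23 without vehicle animal 2, and was -0.32 without vehicle animals 1 and 3.

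*Tlr4* encodes the receptor for lipopolysaccharide. Vehicle animals had 70.4, 113, 45.7 and 86.8 CPM and HPβCD animals 84.2, 86.0, 69.7 and 109 CPM. The highest and the lowest library were both of the vehicle group. The log2 fold change was 0.14 (SE 0.27, adjusted p = 0.774, edgeR), from 79.1 ± 28.4 to 87.2 ± 16.3 CPM, and it was 0.37 without vehicle animal 2, -0.05 without vehicle animal 3 and -0.18 without vehicle animals 1 and 3.

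No endosomal receptor passed the test either, and 4 of 5 had a log2 fold change above 0. *Tlr8* lies beside *Tlr7* on chromosome X and is related to it. The human counterpart of *Tlr8* is known as a sensor of single-stranded RNA and its degradation products. Levels of mouse *Tlr8* were 82.5, 154, 55.5 and 118 CPM in vehicle animals and 122, 181, 176 and 165 CPM in HPβCD animals. Of the HPβCD animals, 3 of 4 lay above every vehicle animal, and HPβCD animal 1 lay between vehicle animals 4 and 2. The log2 fold change was 0.65 (SE 0.30, 95% interval -0.03 to 1.32), from 103 ± 43.0 to 161 ± 26.8 CPM. Neither the unadjusted p (0.0580) nor the adjusted p (0.195) of edgeR passed the threshold, and DESeq2 gave an adjusted p of 0.176. Without vehicle animal 2 the log2 fold change was 0.92 (adjusted p = 0.0701), without vehicle animal 3 it was 0.44 (adjusted p = 0.222), and without vehicle animals 1 and 3 it was 0.25 (adjusted p = 0.460).

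*Tlr7* encodes a sensor of single-stranded RNA that depends on endosomal acidification. It measured 114, 149, 61.0 and 130 CPM in vehicle animals and 134, 147, 164 and 165 CPM in HPβCD animals. HPβCD animals 3 and 4 exceeded all vehicle animals, and vehicle animal 2 exceeded HPβCD animals 1 and 2. The log2 fold change was 0.43 (SE 0.25, 95% interval -0.14 to 1.00, adjusted p = 0.300, edgeR), from 114 ± 37.7 to 153 ± 14.9 CPM. It was 0.59 without vehicle animal 2, 0.22 without vehicle animal 3 and 0.15 without vehicle animals 1 and 3.

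*Tlr13*, a mouse receptor for bacterial ribosomal RNA, had the highest level per kilobase of all members. Vehicle animals had 147, 335, 110.3 and 182 CPM, and HPβCD animals had 211, 221, 238 and 222 CPM. The HPβCD animals were close together, within a range of 1.13-fold, and stood above vehicle animals 1, 3 and 4 but below vehicle animal 2. The vehicle range was 3.03-fold, and the log2 fold change was 0.20 (SE 0.31, adjusted p = 0.712, edgeR). This value depended on single vehicle libraries, since it was 0.62 without vehicle animal 2 (adjusted p = 0.0753), 0.01 without vehicle animal 3, 0.11 without vehicle animal 1 and -0.19 without vehicle animals 1 and 3.

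*Tlr9* recognizes DNA rich in unmethylated CpG and is used by B lymphocytes and plasmacytoid dendritic cells as well as macrophages. It measured 49.8, 51.1, 27.7 and 40.5 CPM in vehicle animals and 35.8, 41.7, 68.1 and 39.8 CPM in HPβCD animals. HPβCD animal 3 was the highest library and the other 3 HPβCD animals lay inside the vehicle range. The log2 fold change of 0.13 (SE 0.26, adjusted p = 0.786, edgeR) was -0.11 without that animal, -0.02 without vehicle animal 3 and 0.03 without vehicle animals 1 and 3.

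*Tlr3* recognizes double-stranded RNA and signals through *Ticam1*. Vehicle animals had 100.3, 85.4, 55.1 and 98.4 CPM, and HPβCD animals had 65.0, 77.4, 74.7 and 80.4 CPM. All HPβCD values lay below vehicle animals 1, 2 and 4 and above vehicle animal 3, as for *Tlr1*. The log2 fold change was -0.19 (SE 0.19, 95% interval -0.63 to 0.25, adjusted p = 0.571, edgeR), and -0.35 without vehicle animal 3 (adjusted p = 0.115). It was -0.09 without vehicle animal 1, -0.10 without vehicle animal 4 and -0.29 without vehicle animals 1 and 3.

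*Myd88*, the adaptor that links the receptors to their kinases, measured 15.9, 19.99, 11.1 and 18.3 CPM in vehicle animals and 19.4, 19.8, 22.01 and 16.4 CPM in HPβCD animals. Both groups shared the range between 16.4 and 19.99 CPM. Its log2 fold change was 0.25 (SE 0.20, adjusted p = 0.462, edgeR), from 16.3 ± 3.89 to 19.4 ± 2.31 CPM. Without vehicle animal 3 it was 0.11, and without vehicle animals 1 and 3 it was 0.03.

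**Figure D1:**
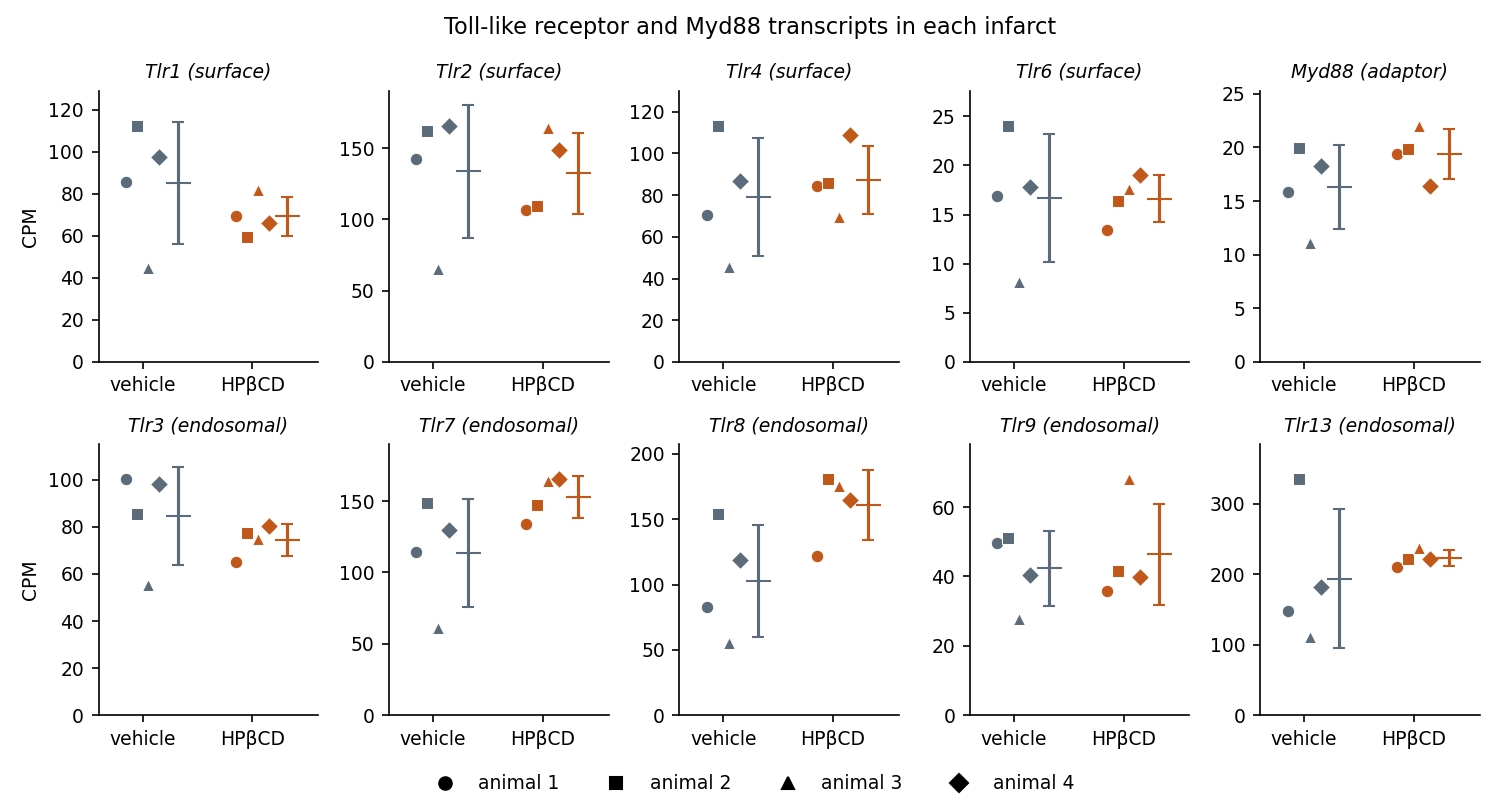
Level of each member in CPM, 1 panel per gene, with a point for each of the 4 vehicle and 4 HPβCD animals and the group mean ± SD beside them. Vehicle animal 3 is the lowest point in every panel, and the groups overlap in all 10 panels.

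These intervals set what could have been missed. Counts behind the values ranged from 135 reads of *Tlr6* in vehicle animal 3 to 11689 reads of *Tlr13* in vehicle animal 2, so the spread between animals and not counting limited the precision. Over the 10 members the SE of the log2 fold change lay between 0.19 and 0.31. The 95% intervals of 8 members included a 1.5-fold rise and those of 4 members a 1.5-fold fall, and the interval of 1 member, *Tlr8*, included a 2-fold rise.

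**Figure D2:**
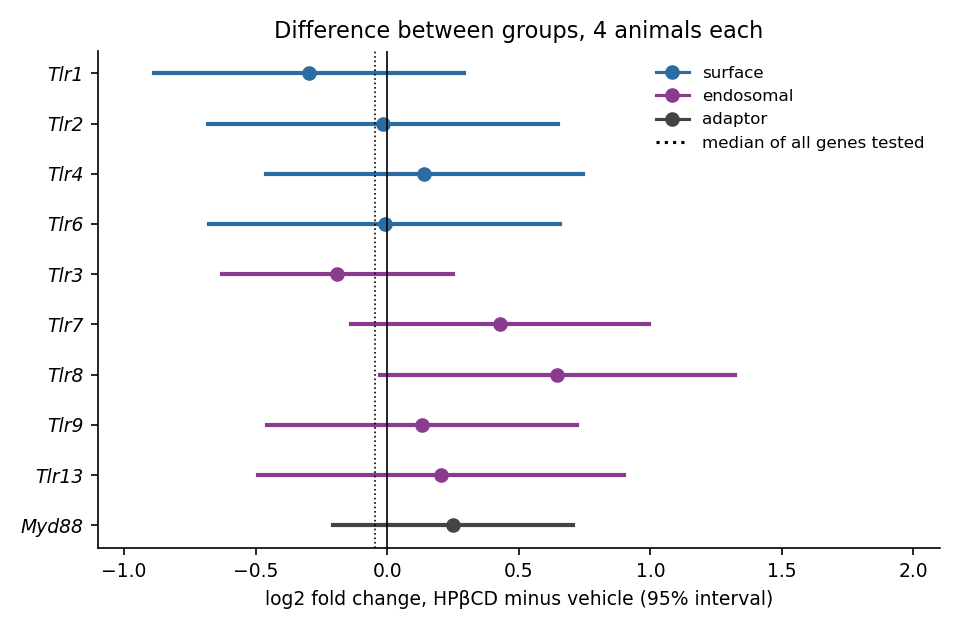
Log2 fold change (HPβCD minus vehicle) of each member with its 95% interval from edgeR, colored by class, with a dotted line at the median of all genes tested. The interval of every member includes 0, and that of *Tlr8*, -0.03 to 1.32, comes closest to leaving it out.

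Surface and endosomal members were then set against each other within each library, which removes what a library does to all receptors alike. Log2 fold changes were above 0 for 1 of 4 surface members and 4 of 5 endosomal members (45.9% of all genes tested), with medians of -0.01 and 0.20 beside -0.05 over all genes. Mean log2 CPM of the surface members minus that of the endosomal members was -0.59, -0.60, -0.80 and -0.53 in vehicle animals 1 to 4, and -0.83, -1.05, -1.01 and -0.76 in HPβCD animals 1 to 4. The endosomal mean exceeded the surface mean in every library, and 3 of 4 HPβCD animals lay below the lowest vehicle animal, with HPβCD animal 4 above vehicle animal 3. Group means were -0.63 ± 0.12 and -0.91 ± 0.14 (SD, n = 4 each), a difference of -0.28 that carries no test because the members were a chosen list. The surface mean moved by 0.03 and the endosomal mean by 0.31. Without *Tlr7* and *Tlr8* the difference shrank to -0.07, without *Tlr3* it was -0.40, and without *Tlr1* and *Tlr6* it was -0.18. Without vehicle animals 1 and 3 it was -0.34.

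In terms of abundance, the 4 surface receptors supplied 39.0%, 34.7%, 34.6% and 39.2% of the summed receptor CPM in vehicle animals and 32.5%, 28.9%, 31.6% and 33.8% in HPβCD animals. These shares did not overlap between the groups, and their means were 36.9% ± 2.58 and 31.7% ± 2.08. After division by exon length the surface share was 40.5% ± 3.09 with vehicle (37.7% to 43.1%) and 34.3% ± 2.31 with HPβCD (31.0% to 36.2%), again without overlap. Shares of single receptors on the length-corrected scale overlapped for all but 3 of 9. *Tlr1* supplied 11.1% to 12.3% with vehicle and 7.44% to 9.74% with HPβCD. The share of *Tlr7* went from 12.05% to 13.4% with vehicle to 14.7% to 15.7% with HPβCD, and that of *Tlr8* from 11.02% to 14.2% to 15.9% to 21.1%. Because the shares of a library sum to 100%, a higher share of 1 receptor lowers the others, and these values are a description without a test. No shares within other sets of genes were computed as a background. In CPM, 0 of 10 members and 16.8% of all genes had groups that did not overlap.

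**Figure D3:**
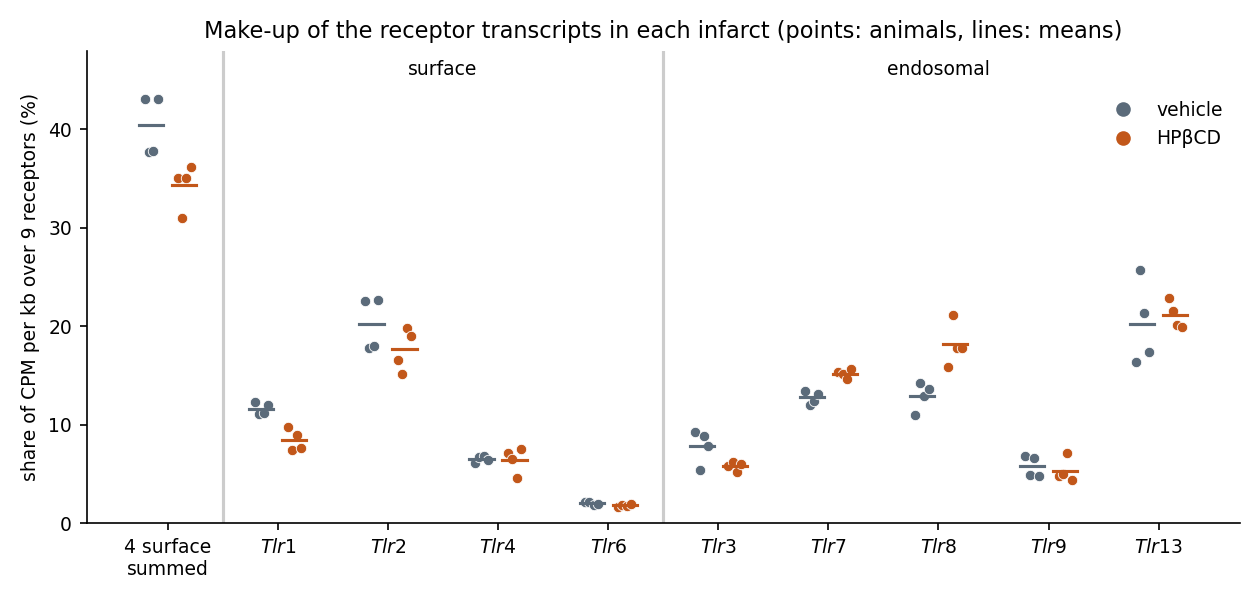
Share of each receptor in the summed CPM per kilobase of the 9 receptors in every animal, in percent, with a point per animal and a bar at the group mean, vehicle beside HPβCD, and the 4 surface receptors summed at the left. *Tlr7* and *Tlr8* take 12.05% to 13.4% and 11.02% to 14.2% in vehicle animals, and 14.7% to 15.7% and 15.9% to 21.1% in HPβCD animals.

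Ratios of single receptors within a library were also compared. *Tlr8* CPM over *Tlr2* CPM was 0.580 to 0.953 in vehicle animals and 1.07 to 1.65 in HPβCD animals, without overlap. *Tlr7* over *Tlr2* was 0.786 to 0.939 with vehicle and 1.00 to 1.35 with HPβCD, also without overlap. The other endosomal receptors over *Tlr2* did overlap, at 1.03 to 2.07 and 1.45 to 2.02 for *Tlr13*, 0.245 to 0.427 and 0.268 to 0.415 for *Tlr9*, and 0.528 to 0.849 and 0.455 to 0.708 for *Tlr3*. *Tlr8* over *Tlr7*, both endosomal, overlapped at 0.721 to 1.04 and 0.908 to 1.23. *Tlr1* over *Tlr2*, both at the surface, overlapped at 0.589 to 0.694 and 0.444 to 0.653. Ratios that share *Tlr2* are not separate evidence, and no ratios of other genes were computed as a background.

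Per kilobase of exon, the order of mean levels over all 8 libraries was *Tlr13* (48.4 CPM per kb), *Tlr2* (44.1), *Tlr8* (36.7), *Tlr7* (32.6), *Tlr1* (23.1), *Tlr3* (15.3), *Tlr4* (14.96), *Tlr9* (12.7), *Myd88* (6.93) and *Tlr6* (4.47). Neighbors in this order were told apart in every library at the steps from *Tlr7* to *Tlr1*, *Tlr1* to *Tlr3*, *Tlr9* to *Myd88* and *Myd88* to *Tlr6*. *Tlr13* exceeded *Tlr2* in 6 of 8 libraries, including 4 of 4 with HPβCD and 2 of 4 with vehicle. *Tlr3* and *Tlr4* could not be ordered, with *Tlr3* higher in 4 of 8 libraries. The level of *Tlr6* leaves out any reads that its shared sequence with *Tlr1* kept from being assigned.

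Receptor levels were next compared with markers of the cells that carry them. Summed CPM of 8 pan-myeloid markers was 1196 to 1603 in vehicle animals and 1608 to 2795 in HPβCD animals, with 0 of 8 genes called by edgeR, 4 at an unadjusted p under 0.05 and a median log2 fold change of 0.50. *Csf1r*, the receptor for colony-stimulating factors that macrophages need to survive, was the most abundant of them and went from 456 ± 46.3 to 498 ± 129 CPM (adjusted p = 0.717). Log2 fold changes in this list ran from -0.13 to 0.94, with 6 of 8 above 0 and 2 below. Percentages of its sum therefore depend on which markers are summed and do not measure receptor per cell. As a percentage of the summed pan-myeloid CPM, the surface receptors amounted to 21.2% ± 5.198 with vehicle and 15.4% ± 4.11 with HPβCD, and the endosomal receptors to 36.2% ± 9.21 and 32.9% ± 6.78. Both ranges overlapped between the groups. On this scale the log2 differences of the surface members were -0.72 for *Tlr1*, -0.44 for *Tlr2*, -0.29 for *Tlr4* and -0.41 for *Tlr6*. Those of the endosomal members lay on both sides of 0, at -0.64 for *Tlr3*, 0.01 for *Tlr7*, 0.24 for *Tlr8*, -0.36 for *Tlr9* and -0.16 for *Tlr13*, and that of *Myd88* was -0.21. Of the HPβCD animals, 3 of 4 lay below every vehicle animal for both *Tlr1* and *Tlr3*, and the ranges of *Tlr8*, 4.64% to 9.62% with vehicle and 6.29% to 10.3% with HPβCD, overlapped.

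Marker lists of other cells were summed in the same way, with no test of a list, and their part in the receptor levels was not tested. By edgeR, 1.95% of all genes were called and 27.8% had an unadjusted p under 0.05. Markers of foamy macrophages summed to 7456 to 13684 CPM with vehicle and 16934 to 28272 CPM with HPβCD, and 1 of 8 was called, *Gpnmb* (4145 ± 1118 to 10779 ± 2642 CPM, adjusted p = 0.0483). *Gpnmb* was also the most abundant of them and weighs most in these sums. The median log2 fold change of the foamy macrophage list was 0.61, within a range of -0.21 to 1.48, and 7 of 8 were above 0. Microglia markers summed to 601 to 1200 and 850 to 1330 CPM, with 0 of 8 called, 5 at an unadjusted p under 0.05 and a median log2 fold change of -0.53. Monocyte markers summed to 681 to 1288 and 1017 to 1655 CPM with 0 of 6 called and 2 at an unadjusted p under 0.05, led by *Fn1* (615 ± 149 and 1199 ± 264 CPM), a gene that fibroblasts also express. The median log2 fold change of the monocyte list was -0.37, with 4 of 6 genes below 0 and 2 above. Below 0 were the inflammatory monocyte marker *Ly6c2* (-1.58, adjusted p = 0.176, edgeR) and the chemokine receptor *Ccr2* (-0.25, adjusted p = 0.697). Vehicle animals 3 and 4 had 8.58 and 11.5 CPM of *Ly6c2*, inside the HPβCD range of 5.56 to 16.0. Above 0 were *Fn1* (0.96) and *Chil3* (0.83, adjusted p = 0.451). *Ly6c2*, *Ccr2* and *Chil3* were named after their values were seen. Neutrophil markers were scarce, at 66.9 to 98.1 and 74.8 to 150 CPM with *Csf3r* first (51.4 ± 5.68 and 67.7 ± 19.4 CPM), 0 of 5 tested called and 1 at an unadjusted p under 0.05. Conventional dendritic cell markers summed to 151 to 318 and 265 to 369 CPM, led by *Itgax* (194 ± 69.0 and 278 ± 45.7 CPM), with 0 of 6 called and 0 at an unadjusted p under 0.05.

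B lymphocytes and plasmacytoid dendritic cells are known for their use of *Tlr7* and *Tlr9*, and the summed levels of their markers did not overlap between the groups. B lymphocyte markers summed to 156 to 586 CPM with vehicle and 49.5 to 141 CPM with HPβCD, and 3 of 8 fell by edgeR (*Cd79a*, *Cd79b* and *Fcer2a*), while the most abundant, *Ms4a1*, went from 191 ± 96.7 to 49.6 ± 21.4 CPM (adjusted p = 0.0797). Plasma cell markers summed to 1207 to 2665 and 343 to 578 CPM, and 1 of 6 fell, *Jchain* (1592 ± 608 to 99.4 ± 87.4 CPM, adjusted p = 0.0462). Plasmacytoid dendritic cell markers summed to 49.8 to 174 and 10.03 to 26.7 CPM, where 1 of 5 tested fell, *Siglech* (23.4 ± 9.55 to 4.41 ± 2.59 CPM, adjusted p = 0.0483). *Siglech* is also expressed by microglia, and *Pacsin1*, the most abundant of this list, is a neuronal gene that reached 123 CPM in vehicle animal 3. *Klk1* was too low to be tested, at 0.0537 to 0.226 CPM with vehicle and 0 to 0.0554 CPM with HPβCD. T lymphocyte markers summed to 92.4 to 138 and 80.4 to 191 CPM, with *Lck* at 39.2 ± 9.64 and 40.7 ± 19.4 CPM, 0 of 6 called and 1 at an unadjusted p under 0.05. Beside the log2 fold change of 0.13 of *Tlr9*, the median of the B lymphocyte list was -1.95 and that of the plasmacytoid dendritic cell list was -1.65.

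Among cells of the tissue itself, fibroblast markers summed to 2147 to 4820 CPM with vehicle and 6924 to 7740 CPM with HPβCD, where *Col1a1* and *Col1a2* rose (2 of 5 called) and *Dcn* was most abundant (1663 ± 648 and 2890 ± 479 CPM). Endothelial markers summed to 335 to 378 and 353 to 618 CPM, with *Cdh5* at 128 ± 26.8 and 202 ± 32.3 CPM and 0 of 4 called (1 at an unadjusted p under 0.05). Astrocyte markers summed to 1437 to 3213 and 526 to 1625 CPM, led by *Gfap* (823 ± 530 and 371 ± 373 CPM), with 0 of 5 called and 3 at an unadjusted p under 0.05. Oligodendrocyte markers summed to 1195 to 4016 and 97.1 to 1558 CPM, led by *Mbp* (1115 ± 478 and 354 ± 391 CPM), with 0 of 4 called and 0 at an unadjusted p under 0.05. Among the neuron markers, 0 of 4 tested were called although all 4 had an unadjusted p under 0.05, and *Snap25* reached 3016 CPM in vehicle animal 3 against 0.917 CPM in HPβCD animal 2.

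**Figure D4:**
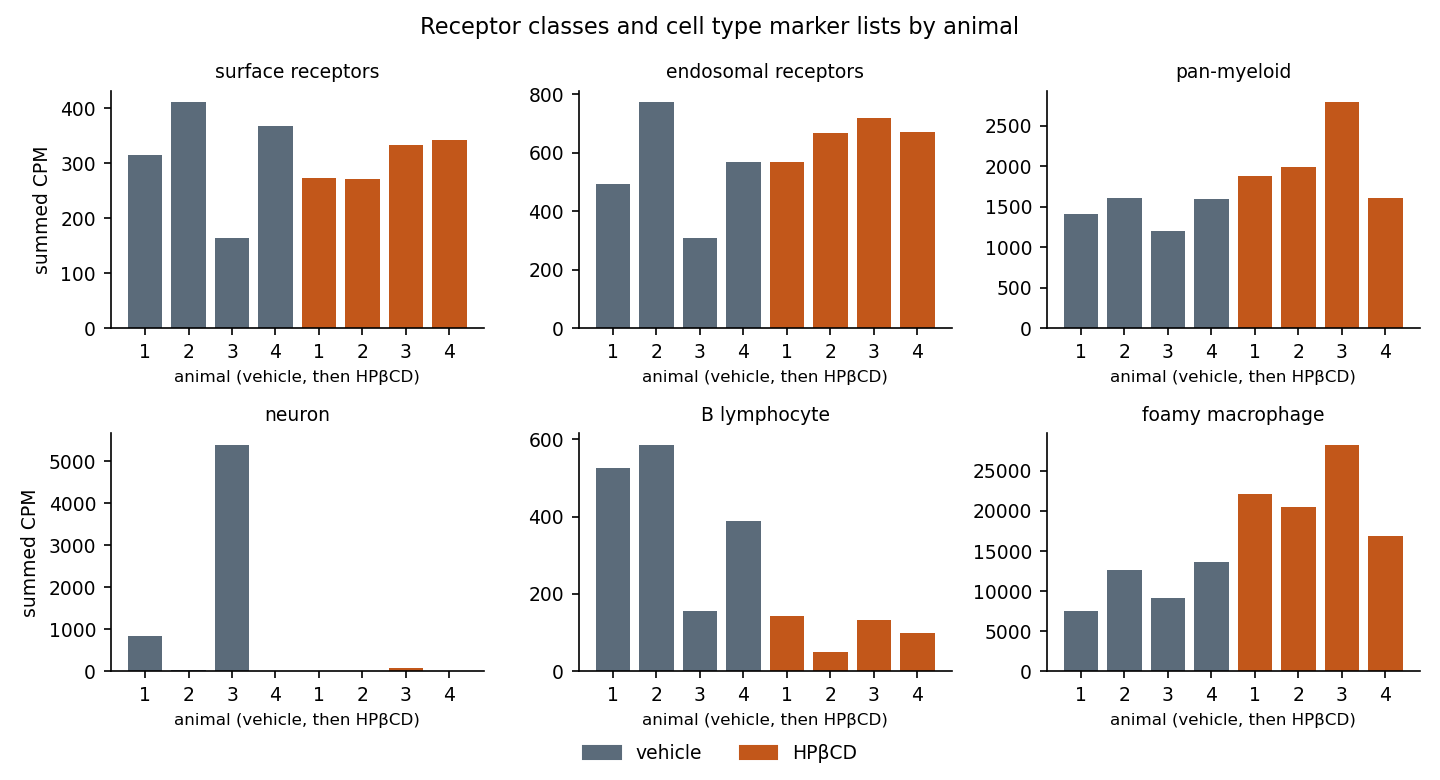
Summed CPM of the surface receptors, the endosomal receptors and 4 marker lists (pan-myeloid, neuron, B lymphocyte, foamy macrophage), 1 bar per animal on axes from 0, vehicle then HPβCD. The surface sums (164 to 411 and 271 to 343 CPM) and the endosomal sums (310 to 774 and 568 to 720 CPM) overlap between groups, as do the neuron sums. The B lymphocyte and foamy macrophage sums do not overlap, nor do the pan-myeloid sums, by a narrow margin (vehicle up to 1603, HPβCD from 1608 CPM).

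Around the receptors, 77 further genes of the pathway in 8 lists were examined, of which 75 were tested. By edgeR 1 rose and 0 fell, against 1.17% of all genes that rose, and 20 had an unadjusted p under 0.05 (27.8% of all genes). DESeq2 called 9 of the pathway genes, where it called 10.9% of its 26507 genes. With limma-voom 17 were called, where 22.1% of all genes were. Fold changes were above 0 for 54 (72.0%, against 45.9% of all genes) and below 0 for 21, with a median of 0.14 on the log2 scale against -0.05, and 13 (17.3%) had groups that did not overlap, where 16.8% of all genes did. In separation between groups the lists stood near the background of all genes, and in the share of fold changes above 0 they stood above it, with no test of either.

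The gene that rose was *Lbp*, which encodes the protein that hands lipopolysaccharide to *Cd14* and on to *Tlr4*. It measured 99.5, 140, 92.3 and 154 CPM in vehicle animals and 248, 298, 333 and 211 CPM in HPβCD animals. Every HPβCD animal stood above every vehicle animal, and the log2 fold change was 1.16 (SE 0.22, adjusted p = 0.0483, edgeR), from 122 ± 30.4 to 272 ± 54.0 CPM. Its call did not hold when any of vehicle animals 1 and 4 and HPβCD animals 1, 2 and 3 was left out, settings in which at most 4 genes of the whole table were called. Of the other surface partners, the scavenger receptor *Cd36* had 597 ± 355 and 867 ± 103 CPM (adjusted p = 0.379) and *Ly86*, a subunit that accompanies the receptor-like protein Cd180, had 362 ± 77.1 and 456 ± 197 CPM (adjusted p = 0.513). In this list 6 of 7 fold changes were above 0 (45.9% of all genes), with a median of 0.33.

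The list of endosomal traffic and processing holds 10 genes, not all of which carry or cleave the nucleic acid receptors. Fold changes were above 0 for 10 of 10, where they were for 45.9% of all genes tested. The median log2 fold change of the list was 0.54, with no test of the list. By edgeR 0 of 10 were called (1.95% of all genes) and 5 had an unadjusted p under 0.05 (27.8% of all genes). Groups did not overlap for 4 of 10 (16.8% of all genes). *Unc93b1*, the chaperone without which the endosomal receptors do not leave the endoplasmic reticulum, measured 172, 162, 148 and 175 CPM in vehicle animals and 272, 253, 373 and 185 CPM in HPβCD animals. All HPβCD animals lay above all vehicle animals, with a log2 fold change of 0.72 (SE 0.21, adjusted p = 0.0814). The 2 most abundant genes were the lysosomal proteases *Ctsb*, at 5046 ± 1299 and 9084 ± 1476 CPM (adjusted p = 0.0829), and *Ctss*, at 1915 ± 240 and 3693 ± 1203 CPM (adjusted p = 0.0698). Neither overlapped between groups, and neither did *Ap3b1*, an adaptor subunit that sorts receptors to lysosome-related compartments (56.4 ± 7.54 and 79.7 ± 4.05 CPM, adjusted p = 0.0698). Cathepsins serve lysosomal breakdown in general and not the receptors alone. *Unc93b1* and *Ap3b1* were named after their values were seen, because their groups were separate.

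Downstream of the receptors no listed gene was called by edgeR. Of all genes, 1.95% were called and 27.8% had an unadjusted p under 0.05. Among 5 further adaptors 0 were called, 0 had an unadjusted p under 0.05 and the median was 0.10, with *Pik3ap1*, which ties the receptors to PI3 kinase, at 50.4 ± 10.2 and 61.9 ± 10.9 CPM and *Ticam1*, the adaptor of *Tlr3*, at 15.3 ± 3.04 and 15.8 ± 1.92 CPM. Among 15 kinases and ubiquitin ligases 0 were called, 2 had an unadjusted p under 0.05 and the median was 0.05, with *Tab2* at 171 ± 33.1 and 159 ± 11.3 CPM and *Map3k7*, the kinase it activates, at 104 ± 21.9 and 107 ± 12.2 CPM. Transcription factors gave 0 of 10 called, 3 at an unadjusted p under 0.05 and a median of 0.14, with *Irf8*, a factor of myeloid cells, at 96.5 ± 23.9 and 114 ± 27.1 CPM and the NF-κB subunit *Rel* at 70.7 ± 29.0 and 68.6 ± 5.50 CPM.

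Inhibitors of the pathway gave 0 of 10 called, 4 at an unadjusted p under 0.05 and a median of 0.15, with the deubiquitinase *Cyld* at 204 ± 70.9 and 133 ± 6.72 CPM (adjusted p = 0.116) and *Tollip* at 94.1 ± 6.42 and 96.9 ± 8.58 CPM. Of 17 target genes 15 were tested, and *Il6* and *Ifnb1* were too low. By edgeR 0 of the 15 were called, 4 had an unadjusted p under 0.05, and 7 fold changes lay above 0 and 8 below, with a median of -0.12. The most abundant were *Icam1*, an adhesion molecule, at 106 ± 29.0 and 196 ± 37.9 CPM (adjusted p = 0.0706, groups separate), and the prostaglandin synthase *Ptgs2*, at 54.2 ± 25.6 and 44.7 ± 9.82 CPM (adjusted p = 0.620). The lowest fold change of the lists was that of *Irf7*, an interferon-induced factor that acts below *Tlr7* and *Tlr9*, and it was named for that after its values were seen. *Irf7* measured 40.7, 28.3, 18.5 and 10.9 CPM in vehicle animals and 3.44, 6.79, 12.05 and 4.38 CPM in HPβCD animals, a log2 difference of -1.88 (SE 0.51, adjusted p = 0.0744). HPβCD animal 3 reached into the vehicle range, above vehicle animal 4.

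Receptors outside the members had low levels. Of *Tlr5*, *Tlr11* and *Tlr12*, 0 of 3 were called, 0 had an unadjusted p under 0.05 and all 3 fold changes were above 0. *Tlr12* measured 6.28 ± 0.750 and 8.18 ± 2.36 CPM and *Tlr5*, the flagellin receptor, 2.09 ± 0.642 and 2.45 ± 0.298 CPM.

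**Figure D5:**
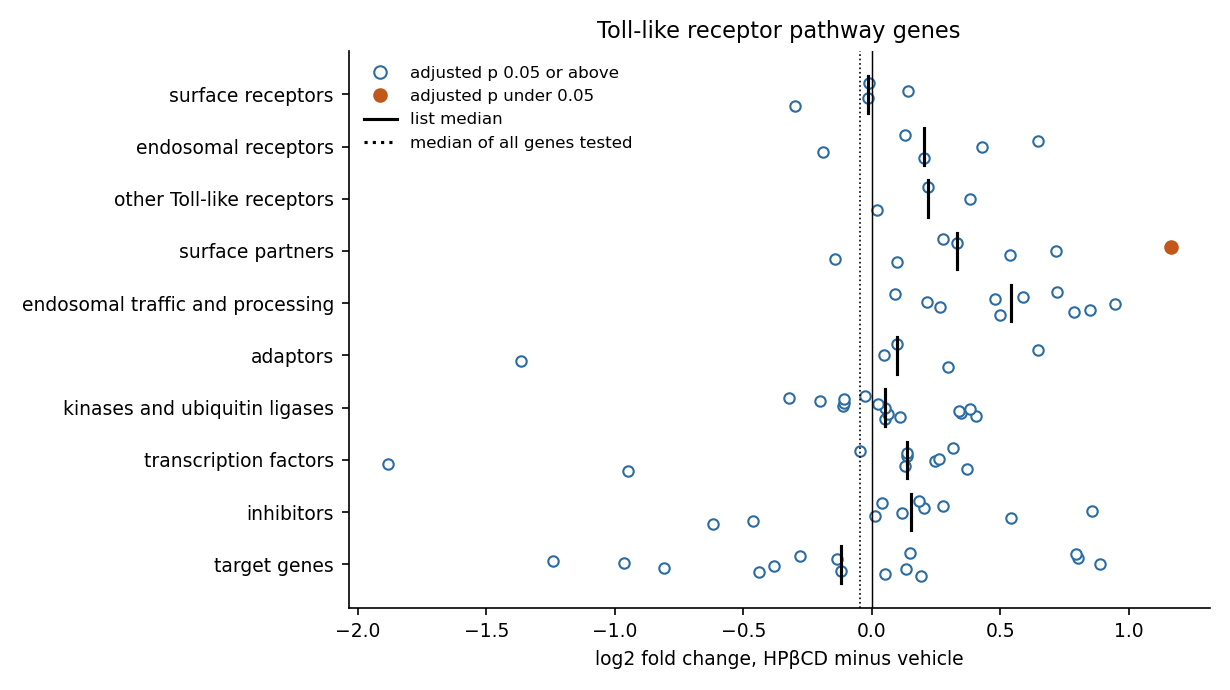
Log2 fold change (HPβCD minus vehicle) of each tested gene of the receptor classes and the 8 pathway lists, 1 point per gene, with list medians as bars and a dotted line at the median of all genes. The filled point is *Lbp* at 1.16, the only gene shown with an adjusted p under 0.05. All 10 genes of endosomal traffic and processing lie above 0 (45.9% of all genes do).

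Genes whose levels followed the receptors most closely over the 8 libraries were also listed, as a description of libraries that differ in tissue content. The mean log2 CPM of the surface members ran most closely with *Hif1a* (Pearson r = 0.991), *Cdc14a* (0.988) and *Serinc3* (0.988). That of the endosomal members ran most closely with *Lcp2* (0.990) and *Syk* (0.986). *Lcp2* and *Syk* encode signaling proteins of immune receptors in blood cells, and their CPM means were 57.2 and 67.3 for *Lcp2* and 155 and 173 for *Syk* with vehicle and HPβCD. Vehicle animal 3, the lowest library for all members, is 1 of the 8 points behind each correlation.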

How the data were processed

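RNA-Seq was performed on infarcts of 8 mice. Per the labels and the study's methods, the authors made stranded libraries from polyadenylated RNA, sequenced pairs of 75-base reads, trimmed them with Trimmomatic 0.32, aligned them to GRCm38 with STAR 2.5.2b and counted them with HTSeq, whose version, strand setting and annotation are not given in the sources used here. The deposited values are raw counts of 46078 Ensembl genes per sample, without normalization, and 5 closing lines for reads assigned to no gene (26.6% to 36.6% of all), which were left out. Reads that align to several places are not assigned by this counting. Symbols matched 45143 identifiers, and gene positions are those of GENCODE M21 on GRCm38. Library totals were 16.6 M to 32.9 M.

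Groups came from the sample labels, which number 4 samples per group, taken here as 4 animals. If samples were not from separate animals, p-values measure only the spread between these samples, which may be technical. The labels give no batch. Every pair of libraries differed by more than sampling noise (lowest chi-square per degree of freedom 18.9). HPβCD and vehicle were compared with edgeR 4.0.16 in R 4.3.3 (robust quasi-likelihood F test, TMM scaling, filterByExpr by group, no covariate) over 14736 genes, with Benjamini-Hochberg adjustment over all of them and a threshold of 0.05. The study itself used DESeq2. Standard errors and 95% intervals of log2 fold changes come from the same fit. Values are CPM, with a prior count of 2 on the log2 scale. Surface members were *Tlr1*, *Tlr2*, *Tlr4* and *Tlr6*, and endosomal members *Tlr3*, *Tlr7*, *Tlr8*, *Tlr9* and *Tlr13*, by textbook location. Their difference per library carries no test.

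Members, gene lists and alternatives were chosen with earlier results of these data known. All members are named, and from each of the 8 pathway lists every called gene and the 2 with the highest mean CPM, from each of the 15 marker lists the gene with the highest mean CPM, and the 3 genes most correlated with each receptor class, unless a gene is stated to have been named after its values were seen. Called marker genes are also named. Some genes that this rule names are not reported here. Alternatives were DESeq2 1.42.0, limma-voom (limma 3.58.1) with quality weights, RLE scaling, library totals, other filters, the replicate number as a block and leaving out libraries. Sequences were compared with Biopython 1.88.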

Additional observations from a re-analysis of the deposited data

Results flagged for a closer look

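Among 26 groups of 4 values searched for a single sample far from the other 3, of which chance would give about 1.3, 1 was found. The log2 CPM of *Tlr2* in vehicle animal 3 was 6.02, while the other vehicle animals lay between 7.15 and 7.37. The same library held the lowest level of all 10 members and the highest summed level of neuron markers, 5393 CPM, and the part of the latter in the former was not tested. Without this library the log2 fold change of *Tlr2* was -0.24 (adjusted p = 0.386, edgeR).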

How the results depend on the processing

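Of 160 alternative values of the members' log2 fold changes, 136 kept their direction and their side of the threshold, 23 changed direction and 1 passed the threshold. *Tlr1*, *Tlr3*, *Tlr7*, *Tlr8* and *Myd88* kept their direction in all 16 alternatives each. Changes of direction concerned *Tlr2*, *Tlr4*, *Tlr6*, *Tlr9* and *Tlr13*. *Tlr2* became 0.00088 with DESeq2, 0.0081 with no filter and 0.032 with the replicate number as a block, and *Tlr6* became 0.0045, 0.013 and 0.070. With limma-voom *Tlr4* became -0.025 and *Tlr9* -0.062. Without vehicle animals 1 and 3 together *Tlr4* became -0.18 and *Tlr13* -0.19. Leaving out 1 animal at a time gave ranges of -0.24 to 0.12 for *Tlr2*, -0.047 to 0.37 for *Tlr4*, -0.24 to 0.23 for *Tlr6*, -0.11 to 0.25 for *Tlr9*, 0.44 to 0.92 for *Tlr8*, -0.51 to -0.13 for *Tlr1*, -0.35 to -0.09 for *Tlr3*, 0.22 to 0.59 for *Tlr7*, 0.01 to 0.62 for *Tlr13* and 0.11 to 0.37 for *Myd88*.

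The count of members called was 0 in all alternatives but limma-voom, where it was 1 (*Tlr1*, -0.54). Genes called in the whole table numbered 287, and 2899 with DESeq2, 3253 with limma-voom, 11 with library totals alone and 9 with the replicate block. Leaving out 1 animal at a time gave 0 (without vehicle animal 1 or 4 or HPβCD animal 2 or 3) to 629 (without vehicle animal 3), with 4 without HPβCD animal 1, 353 without HPβCD animal 4 and 538 without vehicle animal 2. Pathway genes called numbered 1, and 9 with DESeq2 (10.9% of its genes called) and 17 with limma-voom (22.1% of genes called). They numbered 0 with library totals alone, with the replicate block and without vehicle animals 1 and 3, and 0 to 2 leaving out 1 animal at a time. The cause was not tested. The surface minus endosomal difference of -0.28 was -0.074 without *Tlr7* and *Tlr8*, and -0.34 to -0.24 leaving out 1 animal at a time. Library totals alone shifted the median of all genes from -0.05 to -0.12 over the same 14736 genes. It was -0.16 with DESeq2 over 26507 genes and -0.15 with no filter over 26720 genes, which are larger sets of genes.

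Replicate numbers gave no clear sign of pairing the samples, a question that 4 correlations cannot settle. Correlations of the deviations of same-numbered samples from their group means were -0.26, 0.24, 0.33 and 0.10 for replicates 1 to 4, and 2 of 4 vehicle samples correlated best with the HPβCD sample of their own number. Under the block 0 members were called.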
